A study of Mus musculus with 5 samples.

Results

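The 76 genes described here carry the names of mitochondrial ribosomal proteins. They were taken as every gene with at least 1 probe set whose only symbol in the array's 2016 annotation starts with Mrpl or Mrps, which gave 156 probe sets, out of 18193 genes and 34945 probe sets with a single symbol. Genes named Mrpl30 and Mrpl53 were not members, because their probe sets also carry the symbol of another gene. The samples were splenic CD4 T cells of BALB/c mice on Affymetrix mouse arrays. Each of 5 groups had a single array: naive, control Th1 effector, Th1 effector labelled Rap, Th1 effector labelled TOFA, and memory Th1. Effector cells were cultured for 5 days with IL-2 at 15 ng/ml and IL-12 at 10 ng/ml. The labels attach this protocol to the naive and memory samples as well. Here only the effector cells were taken as cultured, and the naive and memory arrays were called resting, from their titles. TOFA blocks acetyl-CoA carboxylase, the first committed enzyme of fatty acid synthesis. The labels do not expand Rap. The sources used here do not give the doses of both agents, the time they were added, whether mice were pooled or how memory cells were obtained.

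Mitochondria carry their own ribosome, descended from that of bacteria, which translates the few proteins that mitochondrial DNA encodes. All of those proteins are subunits of the respiratory chain and ATP synthase. The ribosomal RNAs come from mitochondrial DNA, but every protein of the particle is encoded in the nucleus and imported. The Mrpl genes name proteins of the large subunit, which forms peptide bonds, and the Mrps genes those of the small subunit, which reads the messenger RNA. Exceptions are Mrps18a and Mrps30, whose products sit in the large subunit, and Mrps36, whose product belongs to the 2-oxoglutarate dehydrogenase complex. With these placed by structure, 49 members belonged to the large subunit, 26 to the small subunit and 1 to neither. Activated T cells are known to enlarge their mitochondria and to depend on mitochondrial translation.

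Without replicates, differences between arrays carry no p-value and no replicate error, and precision is limited by the number of arrays. A value is the quantile normalized signal of the gene's brightest probe set, and differences are on the log2 scale. Signals under 43.4, the 40th percentile, were raised to that floor, and 2-fold was the size at which a gene was counted. The only internal measure of spread was that between probe sets of 1 gene. Those probe sets share an array, so this spread leaves out variation between samples. It was taken over 4750 genes with at least 2 probe sets above the floor on all arrays. Its SD was 0.55 between control effector and naive, 0.31 between TOFA and control effector, and 0.32 between Rap and control effector. It was 0.28 for TOFA against Rap, 0.40 for memory against naive and 0.52 for memory against control effector. Each array held 45101 probe sets, with medians as deposited between 63.1 and 99.5.

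The T cell markers on the array, 6 of the 8 listed, were above the floor on every array, with summed signals between 38779 and 61290.2. Markers of other spleen cells differed widely between arrays. All 9 myeloid markers were above the floor on the memory array, with a summed signal of 88541, against 7 of 9 and 1453 on the naive array and 3 to 5 of 9 and 301 to 505 on the effector arrays. The 8 measured B cell markers summed to 59040.4 on the memory array, 33205.5 on the naive array and 2046 to 2838 on the effector arrays. For 5 neutrophil markers the sums were 12439.9, 5458 and 86.8 to 143, and for 5 dendritic cell markers 12223, 1706 and 676 to 1756, in the same order. Of the dendritic cell markers, 4 of 5 were above the floor on the memory array, all but Flt3. On the naive array 4 of 5 were, all but Itgax, and on the effector arrays 2 or 3. The 3 measured erythroid markers summed to 2601 on the memory array and to 25.5 to 93.6 on the others. On the memory array 2 of these 3 were above the floor. The other, Hba-a1, was above it only on the naive array. The part of these cells in the results was not tested. In bulk RNA, fewer cells of a type and less RNA per cell cannot be told apart.

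All 76 members were above the floor on all 5 arrays. Their signals on the naive array ran from 159 to 6112, with a median of 1270.1. The brightest probe set was that of Mrps14, a small subunit protein with a bacterial homologue, with signals between 4682 and 6544, and the dimmest that of Mrps27, which says nothing of the level of 1 gene against another. The member median was 1897 on the control effector array, 1689 on the Rap array, 2141 on the TOFA array and 1329 on the memory array. The 3 effector arrays thus had the higher medians, with TOFA highest, and the resting arrays lay near each other. These are medians of signal, and the median of the gene by gene differences between TOFA and control effector was only 0.05. In 57 of 76 members, 75%, all 3 effector arrays were above both the naive and the memory array. That order was found in 27.4% of all genes above the floor on at least 1 array, and in 33.7% of the 7814 genes whose mean signal lay within the members' range. The opposite order, with all 3 effector arrays below both, was found in 2 members, Mrpl24 and Mrpl38, and in 22.6% of all genes. For Mrpl38 the margin was small, with a TOFA signal of 334 against 338 in naive cells. The TOFA array gave the highest signal for 41 members, control effector for 20, Rap for 8, naive for 4 and memory for 3. Over all genes the TOFA array was highest for 16.9% and control effector for 19.6%. The lowest signal was on the naive array for 35 members and on the memory array for 33, against 24.1% and 26.1% of all genes.

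**Figure D1:**
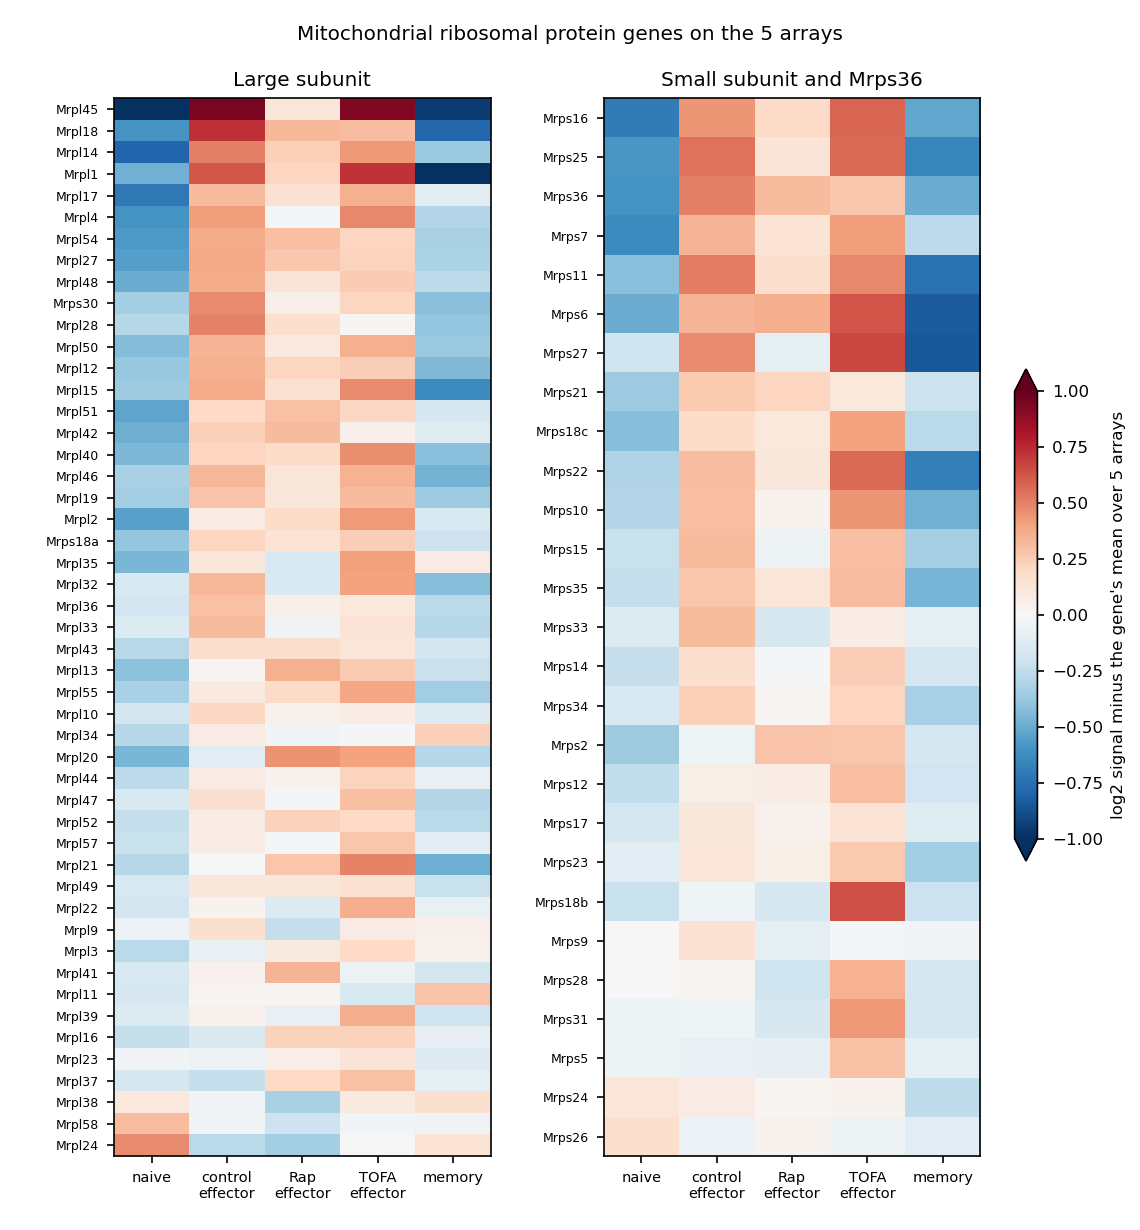
Signal of each member gene on the 5 arrays, drawn as the log2 signal minus that gene's own mean over the arrays, with the large subunit on the left and the small subunit and Mrps36 on the right. Rows are ordered by the difference between control effector and naive, colours end at 1 and -1, and most rows are red on the 3 effector arrays and blue on the naive and memory arrays. Mrpl24 and Mrpl58 are highest on the naive array.

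Control effector and naive cells were compared to describe these genes after Th1 culture. Members were higher in the control effector array as a broad but small shift. Of 76 members, 68 lay above 0 and 8 below, with a median difference of 0.45, against a median of 0.03 and 51.9% above 0 over all 13062 genes compared and 51.2% above 0 among genes in the members' signal range. At least 2-fold higher were 9 members, 11.8%, where 15.9% of all genes were. None was 2-fold lower, against 11.4% of all genes. The members therefore stood out by the shared direction, not by the number past 2-fold. Both subunits were alike, with a median of 0.45 for 49 large subunit genes and 0.42 for 26 small subunit genes. B cell and neutrophil marker sums were lower on the control effector array, as given above.

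The member furthest higher was Mrpl45, whose product lines the polypeptide exit tunnel and helps hold the ribosome to the inner membrane. Its signals were 584 in naive, 2335 in control effector, 1315 in Rap, 2298 in TOFA and 627 in memory cells. The 3 effector arrays were all above the resting arrays, and the Rap array lay between. Control effector was 4.0-fold above naive. Mrpl18, of the central protuberance, had signals of 2209 in naive, 5516 in control effector, 4201 in Rap, 4135 in TOFA and 1937 in memory cells. Control effector was the highest of the 5 and 2.50-fold above naive. Mrpl14, at the face that meets the small subunit, was 2.46-fold higher, with 537 in naive, 1318 in control effector, 1096 in Rap, 1255 in TOFA and 719.8 in memory cells. Each of the 3 genes had its lowest signal on a resting array.

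In the small subunit, Mrps16, which has a bacterial homologue, was 2.21-fold higher in control effector than naive cells. Its signals were 2118 in naive, 4671 in control effector, 3920.0 in Rap, 5155 in TOFA and 2405 in memory cells. Mrps25, which has no bacterial homologue, was 2.18-fold higher, and a second probe set of the gene differed by 1.25. Mrps36, of the 2-oxoglutarate dehydrogenase complex, was 2.16-fold higher. The other members past 2-fold were Mrpl1 (2.15-fold), which forms the mobile stalk where spent tRNA leaves, Mrpl17 (2.05-fold), of the exit tunnel, and Mrpl4 (2.02-fold). Mrpl1, Mrpl4 and Mrps25 were under 2-fold with the signals as deposited, and Mrpl1, Mrpl17 and Mrps25 as a mean over their probe sets.

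A few members went the other way. Mrpl24, another exit tunnel protein, had signals of 6112 in naive, 3654 in control effector, 3485 in Rap, 4383 in TOFA and 4853 in memory cells. All 3 effector arrays were below both resting arrays, and control effector differed from naive by -0.74. Mrpl58, a peptidyl-tRNA hydrolase built into the large subunit that frees stalled chains, differed by -0.36, with 3472 in naive, 2714 in control effector, 2430.1 in Rap, 2744 in TOFA and 2735 in memory cells. Its naive array stood above the other 4. Mrps26 differed by -0.23. Mrpl38 differed by -0.14 on its brightest probe set but by -2.07 once probe sets that can match several transcripts were left out, so its value rests on the choice of probe set.

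Groups of members by place in the particle had medians between 0.27 and 0.67. The central protuberance had a median of 0.67 over 8 genes, the stalk that calls translation factors 0.56 over 4, and the exit tunnel 0.27 over 8. The exit tunnel genes held both the highest and the lowest member, Mrpl45 and Mrpl24. Large subunit proteins with a bacterial homologue had a median of 0.45 over 29 genes and those without 0.55 over 18. For the small subunit the values were 0.47 over 16 and 0.42 over 10. Among genes with a known role, Mrpl12, of the stalk, had signals of 2400.2 in naive and 4001 in control effector cells, and Mrpl44, of the exit tunnel, of 1445 and 1832. Mrps12, of the decoding site, had signals of 1087 and 1344. Mrps30 had 964 and 1691, and Mrpl41 had 2408 and 2758.

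Several members had more than 1 probe set, which allows a check within an array. Among 34 genes with at least 2 probe sets above the floor on all arrays, all probe sets of a gene went the same way in 16 for control effector against naive. The 59 probe sets that were not the brightest had a median of 0.20, with 36 above 0 and 23 below. Over 22 genes whose other probe sets stayed above the 60th percentile, 18 lay above 0, with a median of 0.25, against 0.33 on the brightest probe sets of the same genes. Quantile normalization was also replaced by median centring. Each array was centred on the median of its probe sets above the floor on all arrays, not of all probe sets. This raised the members' median to 0.73 and the count past 2-fold to 18, while the median of all genes moved to 0.19.

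**Figure D2:**
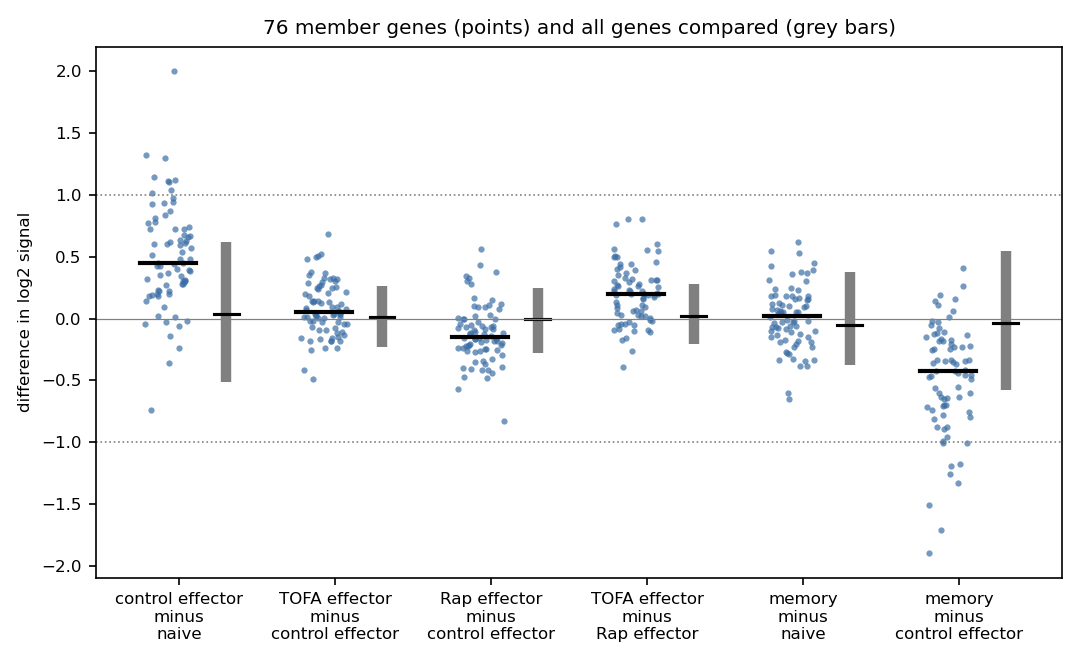
Differences in log2 signal for the 76 member genes (blue points, black line at the median) in the 6 comparisons, beside the middle 50% of all genes compared (grey bar, short line at the median). Dotted lines mark 2-fold. Member medians lie at 0.45 for control effector minus naive, 0.05 for TOFA and -0.15 for Rap minus control effector, 0.20 for TOFA minus Rap, 0.02 for memory minus naive and -0.42 for memory minus control effector.

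TOFA and control effector cells were compared to see how these genes stood in the cells labelled TOFA. Inhibition of acetyl-CoA carboxylase in these cells was not measured by the arrays. The members were close to control. None of 76 was 2-fold apart, where 4.61% of all 12850 genes were, and 75 were within 1.5-fold. The median was 0.05, with 50 members above 0 (65.8%) against 51.3% of all genes. The median over all genes was 0.01. The 59 probe sets that were not the brightest had a median of 0.05, with 32 above 0. With 1 array a group there was no test, so no unadjusted p can be given beside the count of 0.

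The member furthest higher with TOFA was Mrps18b, 1 of 3 mammalian relatives of the bacterial protein S18. Its signals were 1004 in naive, 1139.8 in control effector, 1048 in Rap, 1833 in TOFA and 1013.5 in memory cells. The TOFA array stood above the other 4, which lay near each other, and was 1.61-fold above control. The paralogs did not share this. Mrps18a had signals of 1661 in control effector and 1693 in TOFA cells, and Mrps18c of 3707 and 4313. Mrpl37, which has no bacterial homologue, differed by 0.53 and Mrpl20, which has one, by 0.51. Mrpl21 differed by 0.50 on its brightest probe set but by -0.20 as a mean over its probe sets. That mean includes a probe set above the floor on only 1 array (-0.76), and the remaining probe set differed by -0.34. At the other end were Mrpl28 (-0.48), whose other probe sets differed by -0.27 and -0.22, Mrpl18 (-0.42) and Mrps30 (-0.26).

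Mrpl20 was high under both agents. Its signals were 1290.5 in naive, 1644 in control effector, 2424 in Rap, 2338 in TOFA and 1452 in memory cells. The Rap and TOFA arrays were above the other 3. The comparisons of TOFA and Rap with control share the control array, so a low or high control signal enters both.

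The control array also served for the Rap effector cells. Members were lower in Rap cells by a small amount in most genes. Of 76 members, 58 lay below 0 (76.3%) and 18 above, against 50.5% of 12839 genes below 0. The median was -0.15, against -0.00 over all genes. None was 2-fold apart, where 5.70% of all genes were, and 75 were within 1.5-fold. Of the small subunit, 22 of 26 lay below 0, with a median of -0.17, and of the large subunit 35 of 49, with a median of -0.12.

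Mrpl45 was furthest lower in Rap cells (-0.83), with the signals of 1315 against 2335 given above. Mrps27, a small subunit protein built of helical repeats that bind RNA, had signals of 159 in naive, 254 in control effector, 171 in Rap, 290.4 in TOFA and 101 in memory cells. The Rap array lay near naive, and differed from control by -0.57. Mrpl32 differed by -0.48, Mrps33 by -0.47 and Mrpl4 by -0.44. In the other direction were Mrpl20 (0.56), Mrpl37 (0.43) and Mrpl16 (0.37). Mrpl41 differed by 0.30, with signals of 3396 in Rap and 2758 in control effector cells, and a second probe set differed by 0.20. The median rests on the brightest probe sets. As a mean over all probe sets of a gene it was -0.075, with 27 members above 0, and over the 22 genes with other probe sets above the 60th percentile it was -0.062 on those probe sets and -0.062 on the brightest. All 59 probe sets that were not the brightest had a median of -0.04, with 28 above 0 and 31 below.

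TOFA and Rap arrays were also set against each other directly, which leaves out the control array. Of 76 members, 60 were higher with TOFA (78.9%), against 52.8% of 12783 genes, with a median of 0.20 against 0.02. Of the small subunit, 23 of 26 were higher, and of the large subunit 37 of 49. None was 2-fold apart, where 4.59% of all genes were. Furthest higher with TOFA were Mrps18b (0.81), Mrpl45 (0.81), Mrps27 (0.76) and Mrps31 (0.60). Furthest lower were Mrpl41 (-0.39), Mrpl42 (-0.26) and Mrpl11 (-0.17). The median was 0.098 as a mean over probe sets, and among the 22 genes with other probe sets above the 60th percentile it was 0.16 on the brightest and 0.059 on the others. All 59 probe sets that were not the brightest had a median of -0.00, with 29 above 0 and 30 below, so the direction seen on the brightest probe sets was not found on these.

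**Figure D3:**
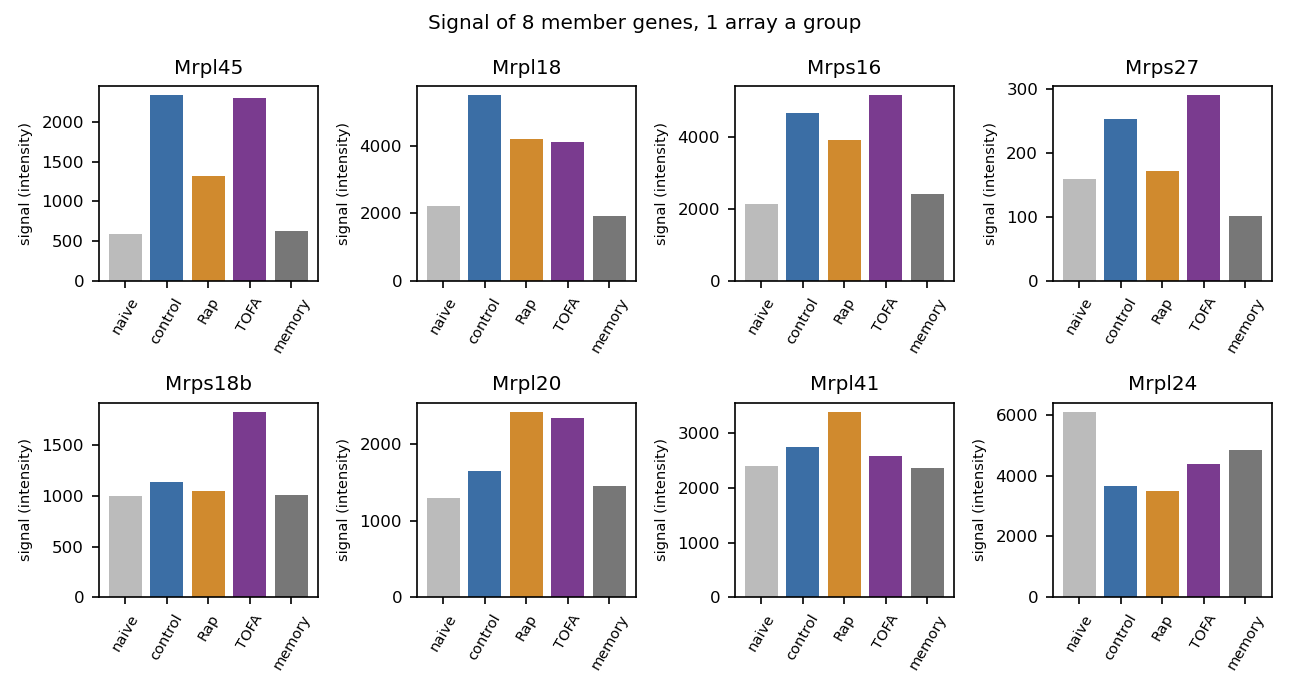
Signal, on a linear axis from 0, of 8 member genes on the naive, control effector, Rap, TOFA and memory arrays, with 1 array a group and therefore no error bars. Mrpl45, Mrpl18 and Mrps16 are high on the 3 effector arrays, Mrps27 is lower with Rap than on the other effector arrays, Mrps18b is high with TOFA only among these 5 arrays, Mrpl20 is high with both agents, Mrpl41 is high with Rap, and Mrpl24 is highest in naive cells.

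Memory cells were compared with naive and control effector cells. Against naive cells the members were centred near 0. The median was 0.02, against -0.05 over 13014 genes, with 39 members above 0 (51.3%), against 46.2% of all genes, and 37 below. Relative to all genes the median was 0.07, and -0.05 with the signals as deposited. None was 2-fold apart, where 16.4% of all genes were. The furthest were Mrpl17 (0.62), Mrpl35 (0.54) and Mrpl34 (0.53) above 0, and Mrps27 (-0.65), Mrpl1 (-0.60) and Mrps22 (-0.39) below it. Mrps27 differed by -0.08 with the floor at the 60th percentile. Among the 22 genes with other probe sets above the 60th percentile, the median was -0.03 on the brightest probe sets and -0.16 on the others. All 59 probe sets that were not the brightest had a median of -0.17, with 15 above 0. The myeloid markers of the memory array summed to 88541, against 1453 on the naive array.

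Against control effector cells, 68 of 76 members were lower in memory cells (89.5%), where 51.7% of 13239 genes were, and the median was -0.42 against -0.03. At least 2-fold lower were 9 members, 11.8%, where 14.1% of all genes were, and none was 2-fold higher, against 14.2% of all genes. All 26 small subunit genes lay below 0. Mrpl45 was 3.73-fold lower, Mrpl1 3.26-fold, Mrpl18 2.85-fold, Mrps27 2.51-fold and Mrps11 2.38-fold. Also past 2-fold were Mrps25, Mrps6, Mrps36 and Mrpl15. As a mean over their probe sets, Mrpl1, Mrpl15, Mrps11 and Mrps25 were under 2-fold. Mrps27 and Mrps36 were under it with the signals as deposited. Mrps27 was also under it with median-centred arrays and with the floor at the 60th percentile. Mrpl15 and Mrps6 were under it without _x_at and _s_at probe sets, and Mrpl15 and Mrps36 with an added constant. Mrpl24 (0.41), Mrpl11 (0.26) and Mrpl38 (0.19) were furthest above 0, and the 4 probe sets of Mrpl11 did not all go one way between memory and naive cells. On the other probe sets of 22 genes, 21 lay below 0, with a median of -0.49, and of all 59 probe sets that were not the brightest 41 lay below 0, with a median of -0.28. The count past 2-fold was 14 with median-centred arrays and 5 as a mean over probe sets. Markers of other spleen cells were at their highest sums on the memory array, with the values above.

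Other genes of mitochondrial translation were described from lists of known factors. The translation factors, which start, extend and end protein chains or stabilize the messages, had a median of 0.57 for control effector against naive over 17 genes, with 3 at least 2-fold higher (17.6%, against 15.9% of all genes) and none lower. These were Slirp, an RNA-binding partner of Lrpprc (1.41), Tsfm, an elongation factor (1.21), and Oxa1l, which inserts new chains into the inner membrane (1.01). Among mitoribosomal proteins without the prefix, Dap3 differed by 0.96 and Gadd45gip1 by 0.84, while Ptcd3 differed by -0.11. The 66 respiratory chain subunits encoded in the nucleus had a median of 0.37, with 52 above 0 (78.8%, against 51.9% of all genes). At least 2-fold higher were 5 (7.58%, against 15.9% of all genes), led by Ndufv3 (1.71).

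Genes that build the ribosome, charge its tRNAs, transcribe mitochondrial DNA or process its RNA had list medians below 0. The assembly factors had a median of -0.29 over 24 genes, with 5 above 0 and 19 below (79.2%, against 48.1% of all genes). Of these, 2 were 2-fold higher (8.33%, against 15.9% of all genes) and 2 were 2-fold lower (8.33%, against 11.4%). The higher were Malsu1 (1.26) and Mettl15 (1.19), which act on the large and the small subunit. The lower were the rRNA methyltransferase gene Nsun4 (-1.19) and Mterf3 (-1.02). Mitochondrial tRNA synthetases had a median of -0.11 over 16 genes, with 9 below 0 (56.25%, against 48.1% of all genes). None was past 2-fold, against 27.2% of all genes. Genes of mitochondrial transcription and RNA processing had a median of -0.08 over 13, with 7 below 0 (53.8%). Polrmt, the mitochondrial RNA polymerase, was lower by -1.32 (signal 548 against 1371), the only 1 of these past 2-fold (7.69%). The 43 cytosolic ribosomal proteins compared had a median of -0.01. No test of the differences between these lists was possible with 1 array a group.

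For TOFA against control effector, the list medians were 0.12 for translation factors, 0.20 for assembly factors, 0.25 for transcription and RNA processing, 0.09 for tRNA synthetases, -0.06 for respiratory chain subunits and 0.00 for cytosolic ribosomal proteins. No gene of the 4 mitochondrial translation and transcription lists was 2-fold apart, where 4.61% of all genes were. Furthest above 0 were Nsun4 (0.91) and the alanyl-tRNA synthetase gene Aars2 (0.81). For Rap against control effector the same lists had medians of -0.03, 0.07, -0.01, -0.10, -0.08 and 0.01. Of the respiratory chain subunits, 50 of 65 lay below 0 in Rap cells (76.9%, against 50.5% of all genes). In TOFA cells 46 of 65 did (70.8%, against 48.6% of all genes). For memory against naive the medians were 0.03, -0.19, -0.26, -0.28, 0.06 and -0.05.

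**Figure D4:**
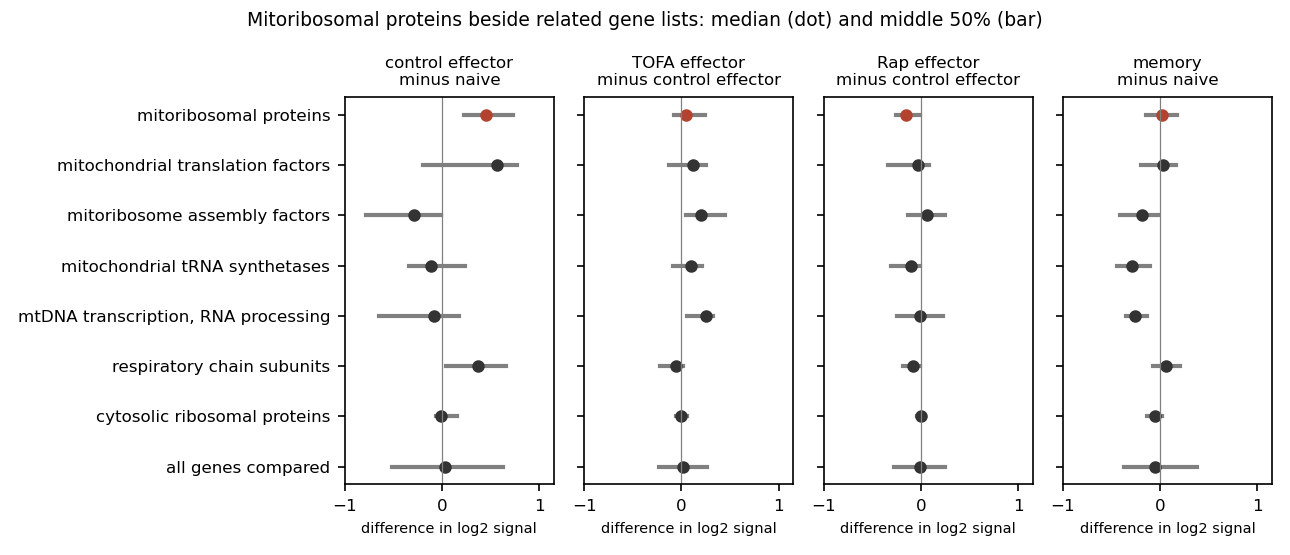
Median (dot) and middle 50% (bar) of the log2 differences for mitochondrial ribosomal protein genes (red) and related gene lists in 4 comparisons, with all genes compared in the last row. In control effector minus naive the mitoribosomal proteins (0.45), translation factors (0.57) and respiratory chain subunits (0.37) lie above 0, and the assembly factors (-0.29) below it.

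The start regions of the members were examined because most members differed in one direction between naive and effector arrays. RefSeq windows of 300 bases, from 250 before to 50 after each start on GRCm38.p6, were found for 67 of 76 members. Each window was searched on both strands for 4 letter strings, none of which contains another. The NRF1 string was shortened by 1 base after the data were seen. The ETS string CCGGAAGT was present in 12 of 67 members (17.9%), in 4.31% of all 27025 genes and in 10.4% of the 8066 genes above the floor on all 5 arrays. The YY1 string AAGATGGCG was present in 8 members (11.9%), in 1.64% of all genes and in 4.09% of those above the floor. The NRF1 string GCGCATGCG was present in 7 members (10.4%), in 1.95% of all genes and in 4.67% of those above the floor. Its full palindrome, 1 base longer, was the string first chosen. That palindrome was in 3 members (4.48%), in 1.07% of all genes and in 2.70% of those above the floor. The E-box CACGTG was present in 5 members (7.46%), in 8.09% of all genes and in 12.3% of those above the floor. A match is a description of these letters and not a binding site.

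Members also often start opposite another gene. In 23 of 67 members (34.3%) the window overlapped the window of a gene on the other strand, against 11.9% of all genes and 20.3% of those above the floor on all arrays. Mrpl46 and Mrps11, both members, start opposite each other and differed by 0.66 and 0.92 for control effector against naive. For the other 21 members the neighbour was a measured gene that is not a member. Those neighbours had a median of 0.08 for control effector against naive, with 12 above 0 and 9 below. Mrpl18 and Tcp1, a subunit gene of the cytosolic chaperonin, start 238 bases apart, and their values lay close to each other in each comparison. Tcp1 had signals of 7279 in naive, 21591 in control effector, 15502 in Rap, 15774 in TOFA and 7241 in memory cells. It differed by 1.57 for control effector against naive (Mrpl18 1.32), -0.45 for TOFA against control (-0.42), -0.48 for Rap against control (-0.39) and -1.58 for memory against control effector (-1.51). Mrps27 and Ptcd2, a gene of mitochondrial RNA handling, start 108 bases apart and were alike in 2 comparisons. Ptcd2 differed by 0.70 for control effector against naive (Mrps27 0.68) and by -0.52 for Rap against control (-0.57), but by -0.27 for TOFA against control, where Mrps27 differed by 0.20. Mrps7 and Gga3 start 224 bases apart and differed by 0.98 and -1.06 for control effector against naive. This pair went opposite ways. Mrpl47 and the respiratory chain gene Ndufb5 start 308 bases apart and differed by 0.32 and 0.36. These 4 pairs were chosen after their values were seen.

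The windows of Mrpl45, the member furthest higher in control effector cells, and of Mrpl18 and Mrps27, whose opposite neighbours are described above, are given 5′ to 3′ on the strand of the gene, with matches to the 4 strings in capitals. They lie on GRCm38.p6 at chr11:97315466-97315765 on the plus strand for Mrpl45, chr17:12916042-12916341 on the minus strand for Mrpl18 and chr13:99344536-99344835 on the plus strand for Mrps27. GC content was 57.7%, 58.7% and 70.3%. None of the 4 strings was in the Mrpl45 window, Mrpl18 held the ETS string, and Mrps27 held the ETS string on the opposite strand and the YY1 string just after the start.
Mrpl45: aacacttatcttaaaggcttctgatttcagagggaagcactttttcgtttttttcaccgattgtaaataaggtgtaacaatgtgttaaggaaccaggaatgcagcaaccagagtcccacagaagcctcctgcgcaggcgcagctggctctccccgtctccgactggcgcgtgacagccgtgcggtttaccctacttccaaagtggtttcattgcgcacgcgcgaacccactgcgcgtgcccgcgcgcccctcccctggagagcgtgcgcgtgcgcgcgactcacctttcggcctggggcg
Mrpl18: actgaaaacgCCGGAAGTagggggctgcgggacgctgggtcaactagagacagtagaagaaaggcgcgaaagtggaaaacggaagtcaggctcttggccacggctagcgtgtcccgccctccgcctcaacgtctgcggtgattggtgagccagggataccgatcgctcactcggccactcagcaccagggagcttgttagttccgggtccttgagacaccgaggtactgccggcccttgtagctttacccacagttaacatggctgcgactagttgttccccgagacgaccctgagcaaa
Mrps27: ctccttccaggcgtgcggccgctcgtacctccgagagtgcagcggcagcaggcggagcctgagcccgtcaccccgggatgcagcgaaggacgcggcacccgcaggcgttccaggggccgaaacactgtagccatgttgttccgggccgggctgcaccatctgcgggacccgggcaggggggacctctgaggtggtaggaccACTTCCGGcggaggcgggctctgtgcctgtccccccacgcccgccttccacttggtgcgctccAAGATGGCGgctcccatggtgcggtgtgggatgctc

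**Figure D5:**
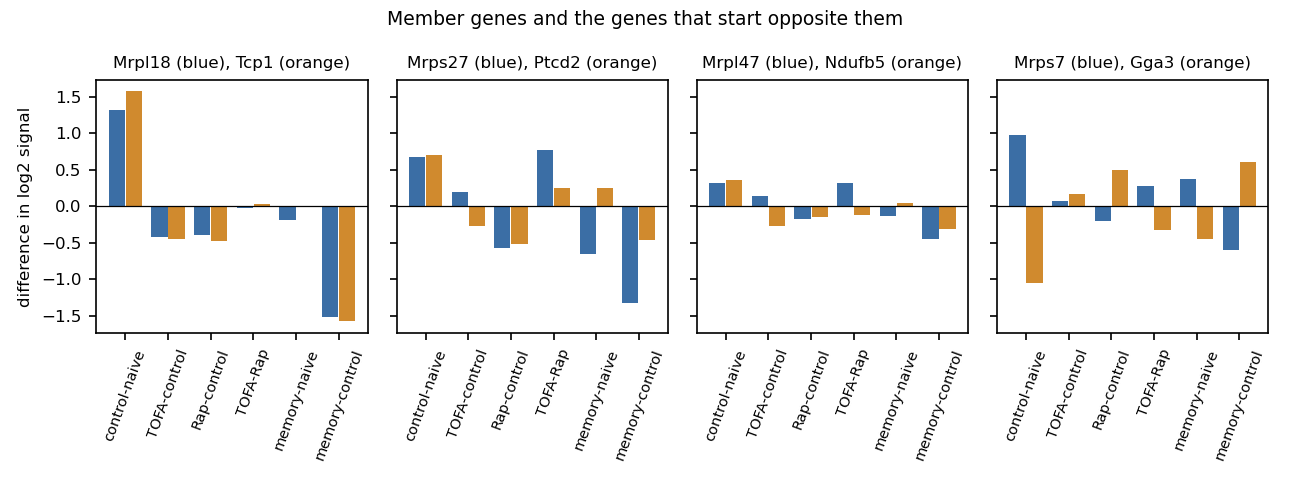
Differences in log2 signal in the 6 comparisons for 4 member genes (blue) and the genes that start opposite them on the other strand (orange). Mrpl18 and Tcp1 have bars of like size and sign except near 0, Mrps27 and Ptcd2 are alike in 2 comparisons, Mrpl47 and Ndufb5 are both small, and Mrps7 and Gga3 go opposite ways for control effector minus naive.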

How the data were processed

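Signals were available for 5 arrays, 1 a group, so no replicate test was made. The number of arrays limits the precision. Per the submitters' processing notes, the authors used the programs GCOS and Affymetrix Expression Console. Neither versions nor the summary algorithm were given in the sources used here. Values as deposited are linear intensity per probe set, and each array had a 2% trimmed mean of 500.003. After 64 control probe sets were set aside, the arrays were quantile normalized, since their medians spanned 0.658 on the log2 scale. Of 45037 probe sets, 34945 had 1 symbol in the 2016 annotation, 932 several and 9160 none. Each gene was represented by its brightest probe set by mean log2 signal. A floor was set at the 40th percentile, and a comparison left out genes that did not exceed it on either array. All 76 members matched the RefSeq table by Entrez identifier, and 0 symbols differed.

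Members, lists and motifs were chosen with earlier results of these data known, and the NRF1 string was shortened by 1 base after seeing the data. Named genes were the members past 2-fold where 10 or fewer, those furthest from 0 in each comparison, and a fixed set with known roles. Fixed genes of other lists were named by the largest differences. The calculation of the 2-fold count was run on simulated data with noise smaller than the spread between probe sets. That run checks the calculation and cannot tell how many of the members counted here truly differ. The 7 alternatives were the signals as deposited, median centring, a floor at the 20th or at the 60th percentile, probe sets averaged per gene, leaving out _x_at and _s_at probe sets, and an added constant. Another, the other probe sets of a gene, was chosen after seeing the data. Median centring used the median of only those probe sets above the floor on all arrays. Python 3.11.15, numpy 2.4.6 and pandas 2.3.3 were used.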

Additional observations from a re-analysis of the deposited data

How the results depend on the processing

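The 6 counts past 2-fold and 6 medians were recomputed under 7 other settings. Of these 84 values, 77 stayed within 1.5 times the count or within 0.1 of the median. The lower alternative floor could not change any member value, because all 76 members were above the main floor on all 5 arrays. Its 12 values are among the 77 and say nothing about stability. The higher alternative floor lay above the signal of Mrps27 on the memory array and of no other member. It could therefore change only the value of Mrps27 in comparisons with memory. Median centring gave 18 members and a median of 0.73 for control effector against naive, and 14 members and -0.68 for memory against control effector. The mean of all probe sets gave 5 members for memory against control effector and a median of 0.098 for TOFA against Rap. Without _x_at and _s_at probe sets, 1 member, Mrpl38, was past 2-fold for TOFA against Rap, and 3 members had no other probe set. In the alternative chosen after seeing the data, the other probe sets of 22 genes had medians of 0.25 for control effector against naive, 0.059 for TOFA against Rap and -0.16 for memory against naive, where the brightest probe sets of the same genes had 0.33, 0.16 and -0.03. Of 782 values for single members, 765 moved by less than the SD between probe sets and 17 by more, and no member past 2-fold changed sign. The 765 include 113 values under the lower floor, which could not move. Averaging probe sets could not move the 34 members with 1 probe set. Leaving out _x_at and _s_at probe sets could move only members whose brightest probe set was of those kinds. These values also say nothing about stability. Scaling moved the median of all genes from 0.03 to 0.19 for control effector against naive (median centring) and from -0.03 to 0.17 for memory against control effector (as deposited). Relative to those medians the members stood at 0.55 and -0.64, against 0.41 and -0.39. The cause of these changes was not tested. No paired analysis was possible because each group had 1 array. Leaving out a replicate was not possible for the same reason.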
